A study of Mus musculus with 16 samples.

Results

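Fgf23, the gene of the hormone fibroblast growth factor 23, was described in lymph node lymphatic endothelial cells together with its receptor genes and with 2 genes that act on it. The set held 7 of the 24946 gene names in the deposited tables: the ligand gene Fgf23, the receptor genes Fgfr1, Fgfr2, Fgfr3 and Fgfr4, the co-receptor gene Kl (klotho) and the glycosyltransferase gene Galnt3. The 7 genes were chosen by name with the measured levels and fold changes of these same libraries known, so their values are a description and carry no test. Of the 7 members, 3 (Fgf23, Fgfr1 and Fgfr3) passed the filter on low values, a level of 1 TPM in 4 or more libraries of a comparison. TPM is a share of each library's transcripts, corrected for transcript length and scaled to the same sum in every library. The other 4 members (Fgfr2, Fgfr4, Kl and Galnt3) stayed under 1 TPM in all 16 libraries.

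The cells were sorted as CD45- CD31+ podoplanin+ lymphatic endothelial cells (LECs) from popliteal and brachial lymph nodes. The 16 libraries formed 4 groups of 4: inflamed Clever-1 knockout (KO inflamed), inflamed wild type (WT inflamed), steady-state knockout (KO) and steady-state wild type (WT). Clever-1, encoded by Stab1, is a scavenger receptor of LECs, and the knockout is a constitutive Stab1-/- present in every cell of the mouse, not only in LECs. Inflamed mice had ovalbumin in Freund's adjuvant injected into the footpads 1 day before the cells were taken. The sample labels call the adjuvant complete and the study's methods call it incomplete, and they also differ on the strain, C57BL/6 in the labels and a mixed C57BL/6N and 129SvJ background in the methods. Mouse age is not in the sample labels, and the study pooled mice for each library. The study's methods give an age range for its knockout and wild-type mice and the use of both sexes, but not by library. The inflamed groups differ from the steady-state groups by antigen and adjuvant together, so the effect of either alone cannot be told apart.

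FGF23 is secreted mainly by osteocytes and osteoblasts in bone and acts on the kidney, where it lowers phosphate reabsorption and the synthesis of active vitamin D. It binds its receptors, FGFR1 above all, with high affinity only together with klotho, whereas most other FGFs use heparan sulfate for this. GALNT3 adds an O-linked sugar that protects intact FGF23 from cleavage by furin-like proteases, and FAM20C phosphorylates FGF23 and favours that cleavage. In lymphatic endothelium, FGF receptor signalling is known for its part in growth and migration, with FGFR1 and FGFR3 as the receptors usually described there.

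Fgf23 lies on mouse chromosome 6, at chr6:127072902-127082296 on the plus strand of GRCm38.p6 in RefSeq. In GENCODE vM21 its transcript Fgf23-201 had 3 exons, of 339, 104 and 1371 bases, with the start codon in exon 1 and the stop codon in exon 3, and no annotated gene overlapped it. The 300 bases around the start (250 before and 50 after, chr6:127072652-127072951, plus strand, RefSeq, GRCm38.p6) are shown because Fgf23 had the widest range of TPM of the 7 members. Capitals mark the 2 matches to searched motifs:

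Fgf23: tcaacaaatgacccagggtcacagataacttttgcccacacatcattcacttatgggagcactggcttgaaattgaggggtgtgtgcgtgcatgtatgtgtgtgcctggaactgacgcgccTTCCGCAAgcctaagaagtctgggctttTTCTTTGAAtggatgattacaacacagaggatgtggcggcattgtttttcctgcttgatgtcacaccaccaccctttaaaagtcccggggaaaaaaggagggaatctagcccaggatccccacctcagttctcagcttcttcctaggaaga

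The search covered 6 motifs on both strands, taken as motifs of factors that act in inflammation or hypoxia plus the TATA box. The first capital run matched the CEBP motif TTNCGNAA at bases -129 to -122 from the start, and 2.47% of the 32851 mouse promoter windows of the same length held a match. The second matched the STAT motif TTCNNNGAA at bases -101 to -93, and 8.3% of windows held one. Both motifs stood together in 0.21% of windows. Only this pair, the one that the Fgf23 window held, was counted, and no other pair of motifs was. Its share is therefore a description and no sign that the window is unusual. The Fgf23 window had no match to the NF-kB motif GGGNNNNNCC (held by 50.8% of windows), the AP-1 motif TGANTCA (7.81%), the hypoxia response motif ACGTG (19.6%) or the TATA box TATAAA (13.6%). A match is a run of letters and not a bound site. Promoter windows were at hand for 6 of the 7 members (Fgfr1 had none), and those of Fgfr2, Fgfr3, Fgfr4, Kl and Galnt3 had no CEBP, STAT, AP-1 or TATA match. Each of these windows held at least 1 NF-kB match, unlike that of Fgf23. The fixed letters of that motif are all G or C. These 2 bases made up 49% of the Fgf23 window, 43.7% of that of Fgfr2 and 65.3 to 76.7% of the others. The windows of Fgfr2 and Fgfr4 also held hypoxia response matches.

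The read depth behind the TPM values is unknown from these tables. The label check held: Stab1 was at 5.85 to 8.90 TPM in KO inflamed and 193 to 640 TPM in WT inflamed cells, and at 5.09 to 6.66 TPM in KO and 235 to 248 TPM in WT cells. WT inflamed replicate 2 stood apart, with 10903 genes at 1 TPM or more against 11898 to 12133 in the other 15 libraries, a median TPM of 0.389 against 0.679 to 0.793, and a mean correlation of 0.910 with its own group against at least 0.952. The main values that rest on the WT inflamed group are therefore given with and without it. Of 7 LEC markers, 6 averaged 1 TPM or more in every group, while Ccl21a, a chemokine gene that LECs transcribe, was listed at 0 in all 16 libraries, so a listed 0 in these tables need not mean that a transcript was absent. The marker lists of blood endothelium, fibroblastic reticular cells, pericytes, bone, erythroid, B and myeloid cells are given beside the results they bear on. In bulk samples, fewer cells of a type and less RNA per cell cannot be told apart.

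Fgf23 was low in steady-state LECs and high 1 day after the injection in both genotypes. It had 76.6, 83.7, 131 and 76.5 TPM in KO inflamed cells, against 3.27, 2.78, 4.88 and 2.26 TPM in KO cells. It had 85.9, 59.4, 126 and 118 TPM in WT inflamed cells, against 2.63, 2.23, 2.29 and 3.70 TPM in WT cells. The inflamed and steady-state libraries did not overlap in either genotype: the lowest inflamed library was WT inflamed replicate 2, and the highest steady-state library was KO replicate 3. The share of all genes without such overlap was not counted, so here and below a lack of overlap is a description only. Group means of Fgf23 were 91.9 ± 26.1 TPM in KO inflamed, 97.3 ± 30.6 in WT inflamed, 3.30 ± 1.13 in KO and 2.71 ± 0.681 in WT (SD, n = 4 each). Over the 16 libraries, 87.3% of genes had a lower mean TPM than Fgf23.

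**Figure D1:**
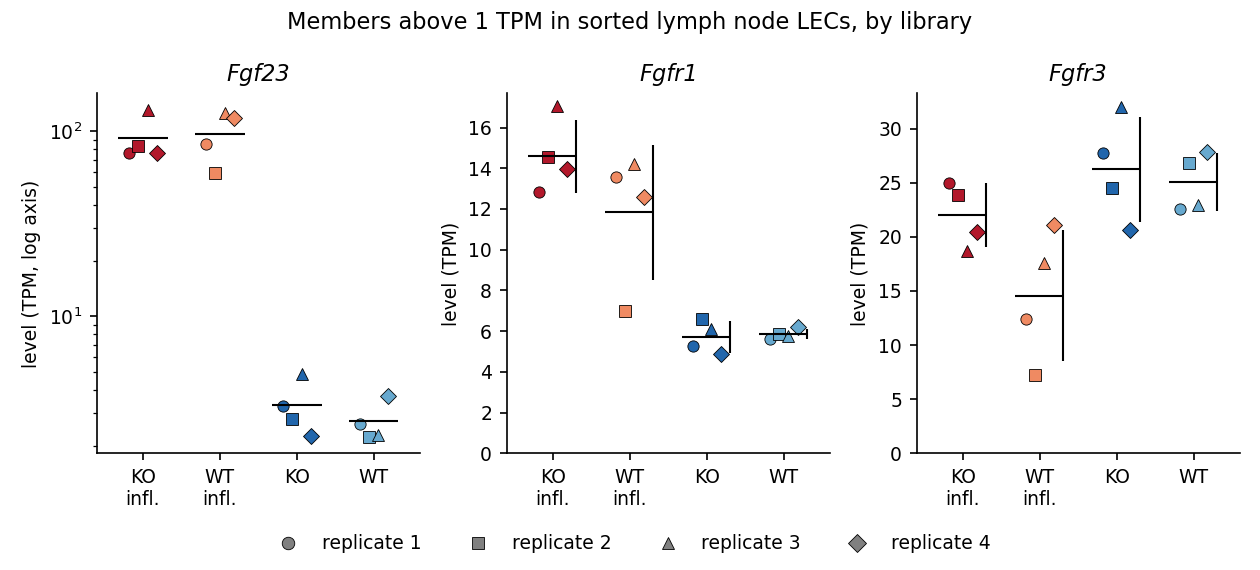
TPM of Fgf23, Fgfr1 and Fgfr3 (y axes, log scale for Fgf23) in each of the 4 KO inflamed, WT inflamed, KO and WT libraries; points are libraries and horizontal lines group means, with vertical lines for ± 1 SD (n = 4) of Fgfr1 and Fgfr3. All 8 inflamed libraries sit at 59.4 TPM or more for Fgf23 and all 8 steady-state libraries at 4.88 or less.

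On the log2(TPM + 1) scale, the inflamed against steady-state difference of Fgf23 was 4.43 in KO cells (SE 0.209, 95% interval 3.97 to 4.89, a 21.6-fold change) and 4.68 in WT cells (SE 0.273, 4.07 to 5.30, a 25.7-fold change). The added 1 TPM understates changes of genes as low as Fgf23 was at steady state. By size of the signed difference it ranked 4th of the 12161 genes tested in the KO comparison and 2nd of 12031 in the WT comparison. A gene was called when limma's moderated test with Benjamini-Hochberg adjustment over all genes gave an adjusted p of at most 0.05 and the fold change was 2 or more. Fgf23 met this rule in both comparisons. Since the members were chosen with their fold changes known, meeting the rule is a description and no support. In these comparisons 6.41% of genes in KO and 1.99% in WT were called higher, and 3.06% and 1.97% were called lower. Without WT inflamed replicate 2 the WT difference was 4.90.

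The genotypes did not separate for Fgf23. KO inflamed against WT inflamed differed by -0.06 (SE 0.276, interval -0.68 to 0.56) and KO against WT by 0.19 (SE 0.205, interval -0.26 to 0.64). The response in KO minus the response in WT, the interaction, was -0.25 (SE 0.359, interval -1.02 to 0.51). Without WT inflamed replicate 2 the differences were -0.27 between the inflamed genotypes and -0.47 for the interaction. Between the inflamed genotypes 0.191% of genes were called higher and 0.125% lower, between the steady-state genotypes 0.431% and 0.39%, and for the interaction 0% in both directions, with 542 genes at an unadjusted p under 0.05.

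Some other measures also differed between the groups, in part with overlap, and their part in the level of Fgf23 was not tested. The summed TPM of the 7 LEC markers was 5396 to 6438 in KO inflamed and 2038 to 5556 in WT inflamed cells, against 2320 to 2666 in KO and 2321 to 2975 in WT cells. Of 9 markers of fibroblastic reticular cells, the stromal cells that share podoplanin with LECs, at least 8 averaged 1 TPM or more in each group. Their sum was 652 to 1047 TPM in KO inflamed, 371 to 1400 in WT inflamed, 307 to 517 in KO and 463 to 606 in WT cells. The WT inflamed library highest in Fgf23, replicate 3, had the lowest reticular sum of the inflamed libraries (371 TPM). The KO inflamed library highest in Fgf23, also replicate 3, had the highest reticular sum of its group (1047 TPM). Bone cells, the known source of FGF23, left little trace: no bone or osteocyte marker of 8 averaged 1 TPM, and their summed TPM was 0.0818 to 0.318 in KO inflamed, 0.0774 to 0.474 in WT inflamed, 0.219 to 0.670 in KO and 0.273 to 0.635 in WT cells. Dmp1, Mepe, Bglap, Bglap2, Ibsp and Sp7 were listed at 0 in all 4 KO inflamed libraries.

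Blood endothelial markers summed to 2170 to 3885 TPM in KO inflamed and 1585 to 3407 in WT inflamed cells, against 4835 to 6248 in KO and 2346 to 2900 in WT cells. Pericyte markers summed to 20.04 to 31.0, 14.5 to 47.6, 10.4 to 23.3 and 8.84 to 12.8 TPM in the same order of groups. Erythroid genes went the other way from Fgf23, with 1.48 to 42.1 TPM in KO inflamed and 2.32 to 81.0 in WT inflamed, against 251 to 522 in KO and 254 to 596 in WT cells. B and plasma cell markers were also lower, at 53.8 to 71.2 TPM in KO inflamed and 35.9 to 60.5 in WT inflamed, against 114 to 126 in KO and 67.7 to 93.9 in WT cells. Macrophage and monocyte markers summed to 267 to 438 TPM in KO inflamed and 250 to 278 in WT inflamed, against 365 to 519 in KO and 409 to 991 in WT cells, and did not overlap in WT. Neutrophil markers summed to 3.73 to 20.2 TPM in KO inflamed and 4.35 to 25.6 in WT inflamed, against 29.0 to 68.3 in KO and 4.81 to 39.1 in WT cells, and did not overlap in KO.

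Fgf23 changed place among the FGF ligand genes. Of 17 other FGF ligand genes, 5 were listed at 0 in all 16 libraries and 13 stayed under 1 TPM in all. Fgf23 was the highest FGF ligand in all 4 KO inflamed and all 4 WT inflamed libraries, with 89.8 to 95.1% and 90.6 to 96.1% of the summed ligand TPM. At steady state Fgf10, a mesenchymal ligand known for its role in lung and limb outgrowth, was the highest ligand in all 4 KO and all 4 WT libraries, and Fgf23 made up 22.7 to 40.5% of the ligand sum in KO and 16.9 to 23.9% in WT cells. Fgf10 had 3.44, 5.44, 2.002 and 2.44 TPM in KO inflamed and 3.49, 0.981, 3.04 and 3.79 TPM in WT inflamed cells, against 7.24, 8.24, 6.16 and 4.95 TPM in KO and 9.11, 8.93, 5.50 and 14.1 TPM in WT cells. The ratio of Fgf23 to Fgf10 was 15.4 to 65.3 in KO inflamed and 24.6 to 60.6 in WT inflamed, against 0.338 to 0.792 in KO and 0.250 to 0.417 in WT cells.

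Fgf10 fell in WT inflamed against WT cells, by 1.46 on the log2 scale (SE 0.354, limma adjusted p = 0.0466 over all genes), a call that held in 6 of 18 alternatives and was lost without any 1 library of the contrast other than WT inflamed replicate 2, without which the difference was -1.17. In KO inflamed against KO cells its difference was -0.86 (adjusted p = 0.00858), short of a 2-fold change. Fgf1, a ligand that binds every FGF receptor, was the only other ligand of the list to be tested and was not called. It differed by 0.80 in KO (adjusted p = 0.00367), short of a 2-fold change, and by 0.65 in WT (adjusted p = 0.435). It had 2.09, 2.51, 2.25 and 1.59 TPM in KO inflamed and 2.81, 0.540, 2.11 and 2.49 TPM in WT inflamed, against 1.49, 0.455, 0.805 and 0.502 TPM in KO and 1.05, 1.51, 1.02 and 0 TPM in WT cells.

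Among the receptors, Fgfr3 and Fgfr1 made up at least 95.1% of the summed receptor TPM in every library. Fgfr1, the receptor through which FGF23 mainly acts (chr8:25518759-25575718), was higher after the injection. Fgfr1 had 12.8, 14.5, 17.1 and 13.9 TPM in KO inflamed cells, against 5.25, 6.60, 6.10 and 4.86 TPM in KO cells. It had 13.6, 6.97, 14.2 and 12.6 TPM in WT inflamed cells, against 5.62, 5.87, 5.75 and 6.20 TPM in WT cells. Inflamed and steady-state libraries did not overlap in either genotype, and WT inflamed replicate 2, at 6.97 TPM, lay nearest to the steady-state level. The difference was 1.22 in KO (SE 0.127, interval 0.94 to 1.50, a 2.33-fold change) and met the call rule, and 0.86 in WT (SE 0.248, interval 0.30 to 1.42) and did not. Without WT inflamed replicate 2 the WT difference was 1.07 and met it, and with rescaling added it was 0.90 and did not. The KO difference was under the 2-fold limit at 0.98 after median ratio rescaling, 0.95 after quantile normalization and 0.87 with a pseudocount of 5 TPM. The interaction of Fgfr1 was 0.36 (SE 0.266, interval -0.21 to 0.93), and 0.14 without that library.

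Fgfr3 (chr5:33721724-33737068), a receptor best known for restraining bone growth, was the most abundant receptor at steady state. It had 25.0, 23.9, 18.7 and 20.4 TPM in KO inflamed and 27.8, 24.5, 32.0 and 20.6 TPM in KO cells, which overlapped. It had 12.4, 7.27, 17.5 and 21.1 TPM in WT inflamed cells, against 22.6, 26.9, 22.9 and 27.8 TPM in WT cells, which did not overlap. Its difference was -0.24 in KO (SE 0.141, interval -0.55 to 0.08) and -0.83 in WT (SE 0.302, interval -1.51 to -0.15), and -0.56 in WT without WT inflamed replicate 2. After median ratio rescaling the differences were -0.49 in KO (SE 0.114) and -0.81 in WT (SE 0.195), and after quantile normalization -0.52 and -0.82. Neither genotype met the call rule under these settings. KO inflamed against WT inflamed differed by 0.65 (SE 0.304, interval -0.04 to 1.34), and by 0.37 without that library. KO against WT differed by 0.05 for Fgfr3 and by -0.04 for Fgfr1, each with an SE under 0.2.

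The balance of the receptor genes differed between inflamed and steady-state cells while their sum varied less. The ratio of Fgfr3 to Fgfr1 in TPM was 1.95, 1.64, 1.09 and 1.46 in KO inflamed cells, against 5.29, 3.71, 5.25 and 4.25 in KO cells. It was 0.917, 1.04, 1.23 and 1.67 in WT inflamed cells, against 4.01, 4.58, 3.99 and 4.48 in WT cells. The highest inflamed ratio, in KO inflamed replicate 1, was below the lowest steady-state ratio, in KO replicate 2. The summed receptor TPM was 37.1 ± 1.91 in KO inflamed, 27.1 ± 8.78 in WT inflamed, 32.3 ± 5.33 in KO and 31.5 ± 2.59 in WT cells (SD, n = 4 each). A ratio of 2 genes shows unequal change, not which of them changed.

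**Figure D2:**
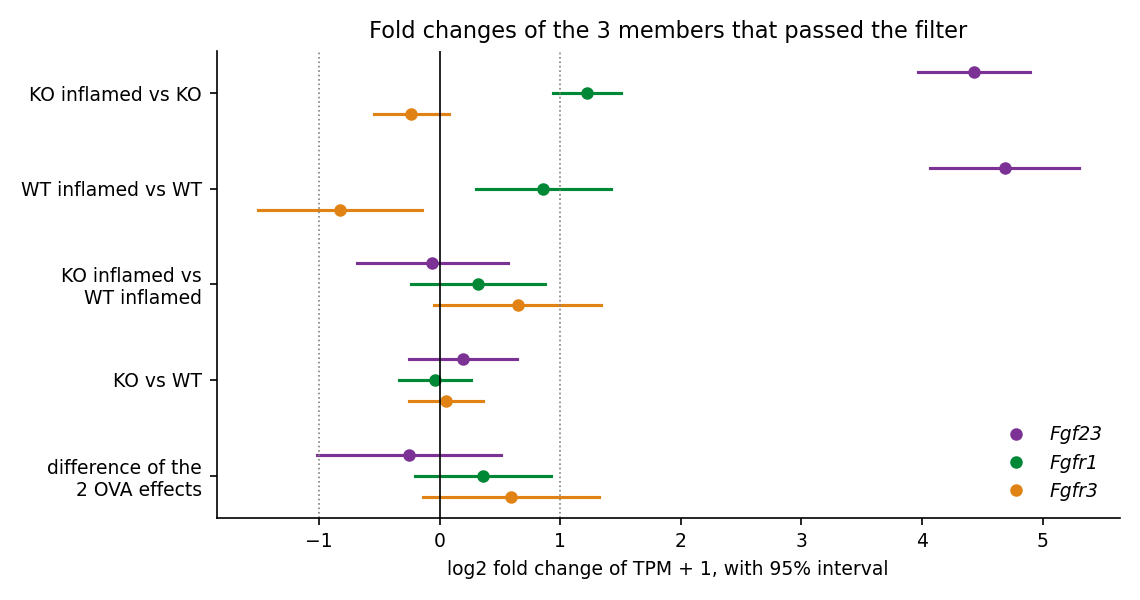
Log2 fold change of log2(TPM + 1) with its 95% interval (x axis) of Fgf23, Fgfr1 and Fgfr3 in each comparison, the interaction at the bottom; dotted lines mark a 2-fold change. Fgf23 stands at 4.43 in KO inflamed against KO and 4.68 in WT inflamed against WT, Fgfr1 at 1.22 and 0.86, and Fgfr3 at -0.24 and -0.83.

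Fgfr2 and Fgfr4 were near the floor of the tables. Fgfr2 (chr7:130162451-130266808, minus strand), a receptor of epithelia in one of its splice forms, had 0.575, 0.455, 0.371 and 0.502 TPM in KO inflamed against 0.150, 0.157, 0.109 and 0.139 TPM in KO cells. It had 0.938, 0.136, 0.490 and 0.390 TPM in WT inflamed against 0.550, 0.210, 0.330 and 0.343 TPM in WT cells. The KO groups did not overlap and the WT groups did, and at steady state the KO libraries all lay below the WT libraries. At these levels, under the filter on low values, no fold change is given. Fgfr4 (chr13:55152818-55168759), the receptor that pairs with beta-klotho in liver, was listed at 0 in 6 of 16 libraries. It had 0.0293, 0.0746, 0.0647 and 0.0738 TPM in KO inflamed, 0.403, 0.216, 0 and 0 in WT inflamed, 0, 0.632, 0.380 and 0 in KO, and 0.323, 0, 0.479 and 0 in WT cells, with no separation of groups.

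Klotho, the co-receptor that gives FGF23 its high affinity in kidney, was all but undetected. Kl (chr5:150952607-150993817) was listed at 0 in 13 of 16 libraries, among them all 4 KO inflamed and all 4 KO libraries. The exceptions were 0.0510 TPM in WT inflamed replicate 1 and 0.00819 and 0.0354 TPM in WT replicates 2 and 3. Galnt3 (chr2:66082766-66125056, minus strand), whose enzyme protects intact FGF23, was listed at 0 in 8 of 16. It had 0.0190, 0.0165, 0.0543 and 0 TPM in KO inflamed, 0, 0.0105, 0.0289 and 0 in WT inflamed, 0.0365, 0.0907, 0 and 0.00783 in KO, and 0 in all 4 WT libraries. The groups of Galnt3 and of Kl did not separate, and none of their 16 values reached 0.1 TPM.

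**Figure D3:**
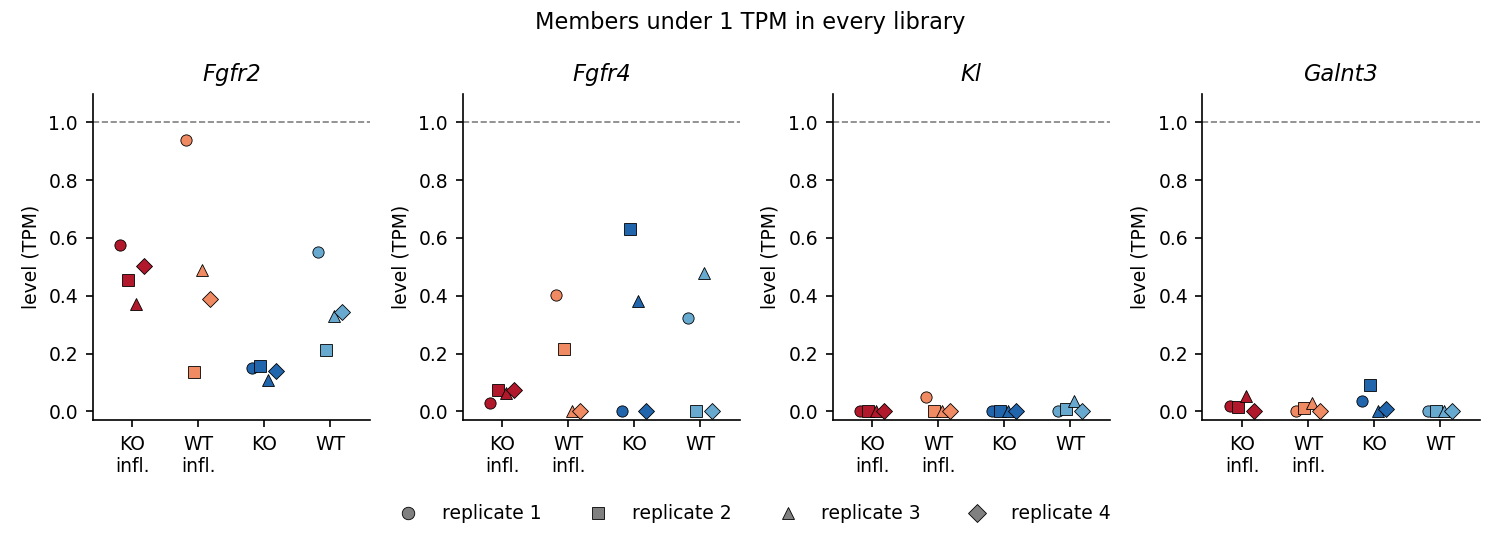
TPM of Fgfr2, Fgfr4, Kl and Galnt3 (y axes, linear) in each KO inflamed, WT inflamed, KO and WT library; each point is 1 library, and points on the zero line are listed at 0. No library reaches 1 TPM for any of the 4 genes.

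The other genes of the pathway were taken from 9 lists of 149 genes in all, of which 146 were in the tables. Of these, 91 were tested in KO inflamed against KO cells, 7 were called higher and none lower, and 61 had an unadjusted p under 0.05. Over all 12161 genes tested in that contrast, 6.41% were called higher, 3.06% lower, and 7877 had an unadjusted p under 0.05, so the share of pathway genes called higher was near the background. The WT inflamed against WT contrast tested 93, none was called higher and 3 were called lower, and 10 had an unadjusted p under 0.05. Over all 12031 genes there, 1.99% were called higher, 1.97% lower, and 2071 had an unadjusted p under 0.05. The pathway genes had a median difference of 0.35 in KO, against 0.24 over all genes tested, and 0.00 in WT, against -0.03 over all genes. Median ratio rescaling moved the all-gene median in KO to 0.01, and with it the share of higher genes among those called went to 39.6%, against 67.7% on the deposited scale. The same rescaling in KO inflamed against WT inflamed moved the all-gene median to 0.02, against 0.20, and the share of higher calls to 54.5%, against 60.5%. The all-gene median of the interaction moved to -0.01, against 0.23. With array weights the share of higher calls in WT inflamed against WT was 65.8%, against 50.2%, and the median 0.16.

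Of the 18 FGF co-receptors and binding proteins, Flrt3 and Gpc4 rose in KO inflamed against KO cells, with 11 tested. Flrt3, a membrane protein that binds FGF receptors, was the most abundant of that list. It had 285, 256, 286 and 337 TPM in KO inflamed against 106, 104, 117 and 110 TPM in KO cells, a difference of 1.40 (SE 0.0834, adjusted p = 1.11e-06). In WT inflamed cells Flrt3 had 279, 89.7, 310 and 320 TPM against 141, 114, 114 and 164 TPM in WT cells. All but one of these libraries lay above all WT libraries and replicate 2 lay below them. Its WT difference was 0.76 (adjusted p = 0.374), and 1.19 without that replicate (adjusted p = 8.44e-05). Gpc4, a heparan sulfate proteoglycan, differed by 1.36 in KO (SE 0.233, adjusted p = 0.000594), at 2.85 to 6.67 TPM in KO inflamed against 0.626 to 1.98 TPM in KO cells.

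Gpc1, another heparan sulfate proteoglycan of the cell surface, fell in WT inflamed against WT cells. It had 17.4, 11.9, 24.1 and 30.5 TPM in WT inflamed against 66.8, 62.8, 62.2 and 59.9 TPM in WT cells, a difference of -1.62 (SE 0.267, adjusted p = 0.00916), and -1.39 without WT inflamed replicate 2. In KO inflamed cells Gpc1 had 33.3, 35.1, 23.8 and 19.6 TPM against 55.6, 54.1, 59.4 and 45.7 TPM in KO cells. The KO difference, -0.95 (adjusted p = 0.000776), was short of a 2-fold change. Flrt3 in KO and Gpc1 in WT were the 2 of 11 pathway calls that every alternative left in place.

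Of the 22 genes that relay the receptor signal, Crk rose in KO inflamed against KO cells, with 20 tested. Crk, an adaptor, had 29.5 to 34.2 TPM in KO inflamed against 12.7 to 14.8 TPM in KO cells (1.16, SE 0.0901, adjusted p = 4.49e-06). Mapk3, the kinase ERK1 and the most abundant gene of the list, was not called. It differed by -0.53 in KO (adjusted p = 0.000201), short of a 2-fold change, and by -0.61 in WT (adjusted p = 0.0513). It had 170 to 210 TPM in KO inflamed and 154 to 219 TPM in WT inflamed, against 257 to 284 TPM in KO and 246 to 292 TPM in WT cells.

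Of the 16 feedback and target genes, which cells commonly induce on FGF receptor signalling, Spry4 rose in KO inflamed against KO cells, with 11 tested. Spry4, an inhibitor of the pathway, had 3.67, 4.36, 6.49 and 4.57 TPM in KO inflamed against 1.71, 1.92, 1.84 and 0.837 TPM in KO cells (1.17, SE 0.191, adjusted p = 0.000449). In WT inflamed cells it had 6.52, 0.928, 4.12 and 3.65 TPM against 2.03, 1.58, 2.48 and 3.99 TPM in WT cells, which overlapped. The immediate early gene Egr1, the most abundant of that list, was not called. It had 298 to 485 TPM in KO inflamed against 470 to 644 TPM in KO cells. In WT inflamed cells it had 104 to 384 TPM, against 404 to 500 TPM in WT cells. Egr1 differed by -0.57 in KO (adjusted p = 0.00477), short of a 2-fold change, and by -0.81 in WT (adjusted p = 0.325).

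**Figure D4:**
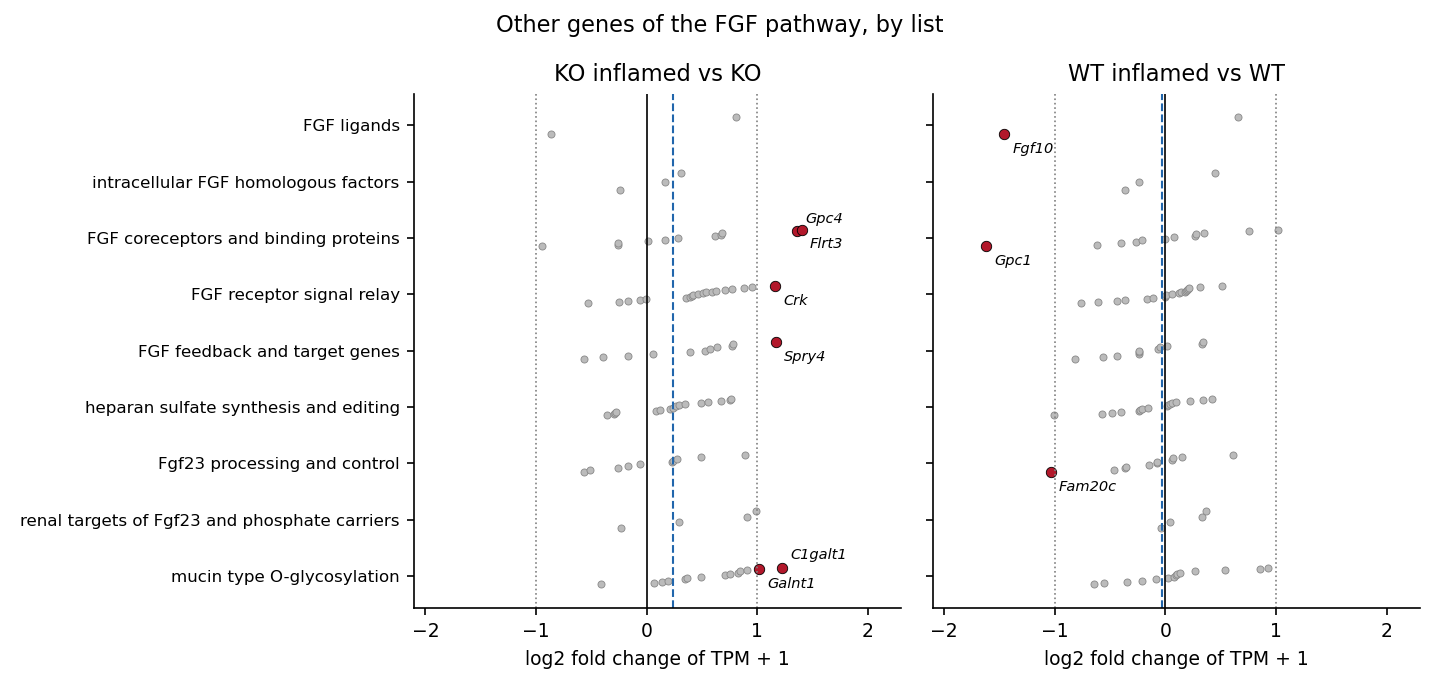
Log2 fold change of log2(TPM + 1) (x axis) of the tested pathway genes, by list, in KO inflamed against KO and in WT inflamed against WT; each point is 1 gene (1 of the tested genes is not drawn), red named points were called, the dashed line is the median of all genes tested and dotted lines mark a 2-fold change. The called genes drawn are all higher in KO inflamed against KO and all lower in WT inflamed against WT, but no pathway gene was called for the interaction. Without WT inflamed replicate 2, Flrt3, Galnt18, Sdc1 and Sulf1 were called higher in WT inflamed against WT. Gpc1, Fgf10 and Fam20c were also lower in KO inflamed against KO, short of a 2-fold change.

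With all libraries, no gene of heparan sulfate synthesis and editing was called in any comparison, of 18 listed. In the contrasts of inflamed against steady-state cells 16 were tested, and 10 in KO and 1 in WT had an unadjusted p under 0.05. Ext2, a heparan sulfate polymerase subunit and the most abundant of them, had 183 to 215 TPM in KO inflamed and 91.1 to 212 TPM in WT inflamed, against 136 to 190 TPM in KO and 164 to 188 TPM in WT cells. Of 20 genes that process or control FGF23, Fam20c fell in WT inflamed against WT cells. Fam20c, the kinase of FGF23, had 10.5, 6.76, 8.55 and 13.2 TPM in WT inflamed against 21.6, 19.2, 21.8 and 19.6 TPM in WT cells (-1.04, SE 0.227, adjusted p = 0.0315), a difference of -0.89 without WT inflamed replicate 2. The call was lost without any 1 library of the contrast other than WT inflamed replicate 4, and in KO inflamed against KO cells the difference was -0.51. Epor, the erythropoietin receptor and the most abundant gene of that list, was not called. It had 26.3 to 35.4 TPM in KO inflamed against 41.9 to 49.3 TPM in KO cells. In WT inflamed cells it had 26.1 to 37.8 TPM, against 33.5 to 47.7 TPM in WT cells. Epor differed by -0.57 in KO (adjusted p = 0.000966), short of a 2-fold change, and by -0.36 in WT (adjusted p = 0.422).

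Of the 11 genes that FGF23 controls in kidney or that carry phosphate, 4 were tested and none was called, with 2 in KO and 0 in WT at an unadjusted p under 0.05. Slc20a1, a phosphate carrier found in many cell types, was the highest. It had 39.2 to 48.5 TPM in KO inflamed against 16.2 to 33.5 TPM in KO cells. In WT inflamed cells it had 15.9 to 43.2 TPM, against 24.3 to 30.1 TPM in WT cells. Slc20a1 differed by 0.91 in KO (adjusted p = 0.00135), short of a 2-fold change, and by 0.33 in WT (adjusted p = 0.742). The 4 intracellular FGF homologous factors, which resemble FGFs and are not secreted, had 3 tested members and no call, with 0 in KO and 1 in WT at an unadjusted p under 0.05. Fgf14, the highest of them, stayed between 0.880 and 4.64 TPM in the 16 libraries.

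Several other genes of mucin-type O-glycosylation, the pathway of Galnt3, had higher TPM than Galnt3. Of the 23 listed genes, 14 were tested in each of these contrasts. Galnt18 was the most abundant, with 513, 591, 484 and 505 TPM in KO inflamed and 512, 318, 592 and 587 TPM in WT inflamed, against 322, 287, 324 and 303 TPM in KO and 223, 269, 281 and 252 TPM in WT cells. All inflamed libraries but WT inflamed replicate 2 lay at 484 TPM or more. Its differences, 0.75 in KO (adjusted p = 1.49e-05) and 0.93 in WT (adjusted p = 0.0334), were short of a 2-fold change, and the WT difference was 1.14 without WT inflamed replicate 2 (adjusted p = 1.92e-05). Galnt1, an enzyme that starts O-glycans on many proteins, rose in KO inflamed against KO cells, at 181 to 223 TPM against 92.6 to 105 TPM (1.01, SE 0.0787, adjusted p = 4.45e-06). That call was lost without KO replicate 1, KO replicate 4 or KO inflamed replicate 2. C1galt1, which adds the next sugar, rose there as well, at 14.02 to 21.3 TPM against 4.46 to 9.90 TPM (1.22, SE 0.206, adjusted p = 0.000542). After median ratio rescaling, Crk, Spry4, Galnt1 and C1galt1 stayed higher in KO inflamed cells and were no longer called.

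Galnt15, an enzyme of the Galnt family, was the only pathway gene called between the genotypes. It fell in KO against WT cells, with 13.1, 9.93, 11.8 and 12.9 TPM in KO against 26.4, 28.8, 27.4 and 22.3 TPM in WT cells (-1.08, SE 0.126, adjusted p = 0.0007), a difference that was -0.997 and just short of 2-fold without KO replicate 2. It had 8.08, 8.22, 8.84 and 9.47 TPM in KO inflamed against 14.3, 7.09, 30.4 and 22.6 TPM in WT inflamed cells. Without WT inflamed replicate 2, Galnt15 was called lower in KO inflamed against WT inflamed as well (-1.22, adjusted p = 0.0304), and the WT contrast of inflamed against steady state also called Sdc1 (1.30, adjusted p = 0.000282) and Sulf1 (1.09, adjusted p = 0.000187) higher. With rescaling added, Sdc1 stayed called in that contrast, and Sulf1 and Galnt18 were not called. Sdc1 is a proteoglycan and Sulf1 an enzyme that trims heparan sulfate, and both are named after their values were seen. With all libraries no pathway gene was called in KO inflamed against WT inflamed (7 of 92 at an unadjusted p under 0.05, and 513 of 12030 over all genes) or for the interaction (7 of 96, and 542 of 12684). No call was made at steady state besides Galnt15, with 91 genes tested and 15 at an unadjusted p under 0.05, against 1407 of 12058 over all genes. The study's methods name a mixed strain background, and the part of strain in the Galnt15 difference was not tested. The distance of Galnt15 from Stab1 was not examined.

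The genes beside Fgf23 on chromosome 6 were taken by position alone, 3 protein-coding genes on each side. Tigar, which encodes a regulator of glycolysis, is the nearest and lies 3.7 kb beyond the end of Fgf23-201 in GENCODE, on the opposite strand, with its own end facing Fgf23. The distances below are also from GENCODE. Tigar had 24.7, 25.3, 27.1 and 32.9 TPM in KO inflamed against 5.16, 6.01, 6.42 and 4.84 TPM in KO cells (2.11, SE 0.125, adjusted p = 1.11e-06). It had 34.9, 12.7, 35.7 and 29.1 TPM in WT inflamed against 4.96, 7.34, 7.54 and 6.54 TPM in WT cells (1.85, SE 0.330, adjusted p = 0.0132, and 2.18 without WT inflamed replicate 2). The inflamed and steady-state libraries of Tigar did not overlap. The libraries did not mark strand, and Tigar overlaps the antisense transcript Platr31, so reads of the pair cannot be told apart.

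Of the other neighbours, Rad51ap1, a DNA repair gene 133.3 kb before Fgf23, also rose in both genotypes, by 2.45 in KO (SE 0.183, adjusted p = 3.66e-06) and 1.99 in WT (SE 0.335, adjusted p = 0.01), and 2.29 in WT without WT inflamed replicate 2. Parp11, 365.4 kb after Fgf23, rose in KO (1.19, SE 0.191, adjusted p = 0.000392), and its WT difference of 0.79 became 1.17 (adjusted p = 0.000178) without WT inflamed replicate 2, and with rescaling added it was 0.99 and not called. D6Wsu163e, 96.9 kb before, and the cell cycle gene Ccnd2, 43.8 kb after, were not called in either genotype. D6Wsu163e differed by 0.53 in KO (adjusted p = 0.0075), short of a 2-fold change, and by 0.00 in WT. Its WT difference was 0.41 without WT inflamed replicate 2 (adjusted p = 0.039), and 0.22 with rescaling added (adjusted p = 0.247). Rad51ap1, Parp11 and Ccnd2 also overlap other annotated genes, with the same limit as for Tigar. Fgf6, an FGF ligand gene of muscle 44.7 kb before Fgf23, was listed at 0 in all 16 libraries. None of the 6 neighbours was called between genotypes or for the interaction.

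**Figure D5:**
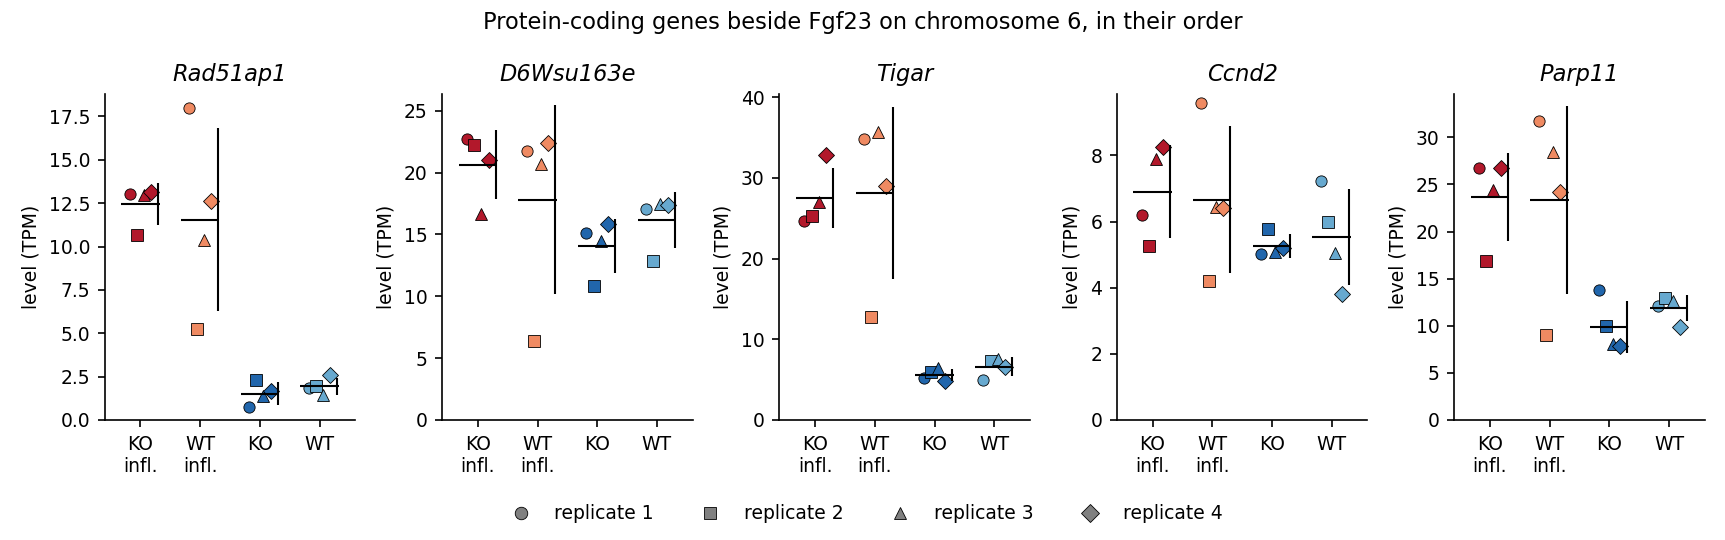
TPM (y axes, linear) of 5 neighbours of Fgf23 in the KO inflamed, WT inflamed, KO and WT libraries, with panels in chromosome order and Fgf6 left out; points are libraries, horizontal lines group means and vertical lines ± 1 SD (n = 4). Tigar sits at 12.7 TPM or more in the inflamed libraries and at 7.54 or less at steady state.

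The genes whose pattern was most like that of Fgf23 were Ctla2a, Ddah1, Ckap4, Pgs1 and Itih4, by Pearson r of log2(TPM + 1) over the 16 libraries among 8771 genes with a mean of at least 5 TPM. Their r lay between 0.978 and 0.979, and 45 genes had an r above 0.95. Their Spearman rho lay between 0.794 and 0.874. These values hold the gap between inflamed and steady-state groups. The r of deviations from group means was 0.105 for Ctla2a, a cysteine protease inhibitor, and 0.698 for Ddah1, an enzyme that breaks down an inhibitor of nitric oxide synthesis. It was 0.527 for Ckap4, 0.623 for Pgs1 and 0.457 for Itih4. Itih4, a secreted protein known from the acute phase response in liver, averaged 31.0 TPM in KO inflamed and 39.7 TPM in WT inflamed, against 1.00 TPM in KO and 1.31 TPM in WT cells. Ctla2a averaged 710 TPM in KO inflamed and 660 TPM in WT inflamed, against 137 TPM in KO and 100.3 TPM in WT cells. The points share library and group, and the likeness is a description. Galnt3 was under the filter and was not compared with other genes in this way.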

How the data were processed

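Messenger RNA of sorted LECs was amplified with SMART-Seq v4, made into libraries with Nextera XT and sequenced as single reads on an Illumina HiSeq instrument. The sources differ on the processing: the labels name STAR 2.5.2b, Subread and limma, and the study's methods name STAR, salmon and a count-based test, on mm10 with RefSeq annotation. The authors deposited normalized TPM values in 3 tables, each of 24972 rows, with 8 library columns repeated between tables and no repeated value differing. 26 rows were dropped because spreadsheet software had turned their names into dates, which left 24946 gene names. The design text speaks of triplicates, whereas 4 libraries per group were found and used. 7 further deposited tables hold the authors' own fold changes and p-values and were not used.

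TPM values carry no read depth, so no counting interval was given. Each comparison was fitted with limma 3.58.1 (lmFit and eBayes with trend) in R 4.3.3 on log2(TPM + 1), for genes that reached 1 TPM in 4 or more libraries of the comparison, with Benjamini-Hochberg adjustment over all genes tested. A call needed a 2-fold change with an adjusted p no higher than 0.05. The interaction used all 16 libraries. The p-values measure the spread between libraries, each of pooled mice. The members and the lists were chosen with earlier results of these data known. Named genes were all 7 members, up to 4 called genes per list and comparison by size of change with a mean of at least 1 TPM, the most abundant gene of each list, the 5 genes most like Fgf23, and Stab1. Alternatives were other pseudocounts, filters, normalizations, a fit over all libraries, a replicate block, array weights and leaving out each library. The scripts were tested on simulated data. Sequences came from RefSeq on GRCm38.p6. 1 pathway gene, included in the counts, is not reported here by name.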

Additional observations from a re-analysis of the deposited data

Results flagged for a closer look

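In the 4 libraries of a group, a value of log2(TPM + 1) was flagged when its gap to the nearest of the other 3 passed Dixon's 95% limit as a share of the group's range. 121 groups of 32 genes were checked, and chance flags about 1 in 20. Of 16 flags, 9 were in WT inflamed replicate 2 and 7 in other libraries.

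Fgf23 in KO inflamed replicate 3 was 131 TPM, against 76.5 to 83.7 TPM in the other 3 libraries. Kl in WT inflamed replicate 1 was 0.0510 TPM, the others being listed at 0, a case that is flagged whatever the size of the remaining value. In WT inflamed replicate 2, 9 pathway or neighbouring genes were flagged, all low. Flrt3 was 89.7 TPM there against 279 to 320 TPM in the others, Crk 3.503 against 26.1 to 35.3, C1galt1 1.38 against 15.1 to 16.5, and Galnt1 22.7 against 170 to 213. Egr1 was 104 TPM against 325 to 384, Ext2 91.1 against 185 to 212, Slc20a1 15.9 against 40.3 to 43.2, Fgf14 0.880 against 3.33 to 3.74, and D6Wsu163e 6.41 against 20.7 to 22.4. The other flagged values were Spry4 in KO replicate 4 (0.837 TPM, others 1.71 to 1.92), Fgf14 in KO inflamed replicate 3 (2.70, others 3.96 to 4.23), Rad51ap1 in KO inflamed replicate 2 (10.7, others 12.99 to 13.1), Ext2 in WT replicate 4 (164, others 184 to 188) and D6Wsu163e in WT replicate 2 (12.8, others 17.03 to 17.5).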

How the results depend on the processing

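The response of Fgf23, known when the gene was chosen, kept its direction under every alternative run in both genotypes. It also met the call rule under each, as a description only. In WT inflamed against WT it was 5.08 with a pseudocount of 0.1 TPM and 3.68 with 5 TPM, and in KO inflamed against KO 3.52 with 5 TPM. Its interaction was -0.63 with array weights. Leaving out 1 library gave 4.25 to 4.59 in KO inflamed against KO, 4.54 to 4.90 in WT inflamed against WT, -0.27 to 0.08 in KO inflamed against WT inflamed, 0.03 to 0.31 in KO against WT and -0.47 to -0.09 for the interaction.

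Counts of called genes moved more, and the cause was not tested. Over all genes, the count in KO against WT (99) was 45 with a pseudocount of 5 TPM. In WT inflamed against WT (476) it was 262 with a pseudocount of 5, 317 with a filter at 5 TPM, 1085 with array weights and 997 with rescaling and without WT inflamed replicate 2 together, an alternative chosen after seeing the data. The KO inflamed against KO count (1152) was 539 with a pseudocount of 5. The KO inflamed against WT inflamed count (38) was 19 with the filter at 5 TPM, 78 with the fit over all libraries, 89 with array weights and 76 with rescaling and without that library. The interaction (0) gave 1 with a pseudocount of 5, 2 with no filter, 1 after quantile normalization, 11 with array weights and 3 with rescaling and without that library. Leaving out 1 library gave 74 to 89, 207 to 1052, 1005 to 1240, 9 to 78 and 0 to 6 calls in these 5 comparisons in the same order. In WT inflamed against WT the count was 1052 without WT inflamed replicate 2 and 207 to 281 without any other library. In KO inflamed against WT inflamed it was 78 without WT inflamed replicate 2 and 9 to 24 without any other. The interaction gave 6 without WT inflamed replicate 2, 2 without WT replicate 3, and 1 without WT inflamed replicate 4 or KO inflamed replicate 3.

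Of the pathway genes, lower calls in KO against WT (1) were 2 with a pseudocount of 0.1, 0 with 5, 0 with the fit over all libraries, 2 with array weights and 4 with no fold threshold. In WT inflamed against WT, higher calls (0) were 1 with median ratio rescaling, 1 with quantile normalization, 1 with the fit over all libraries, 3 with array weights, 2 with rescaling and without WT inflamed replicate 2, and 2 with no fold threshold. Lower calls there (3) were 1 with a pseudocount of 5. In KO inflamed against KO, higher calls (7) were 14 with a pseudocount of 0.1, 1 with 5, 2 with median ratio rescaling, 3 with quantile normalization, 4 with the fit over all libraries and 49 with no fold threshold, and lower calls (0) were 1 with a pseudocount of 0.1, 2 with each rescaling and 9 with no fold threshold. In KO inflamed against WT inflamed, 1 was called higher with the fit over all libraries and 1 lower with array weights or with rescaling and without that library. Leaving out 1 library gave 0 to 4 higher and 1 to 2 lower calls in WT inflamed against WT, 5 to 10 and 0 to 2 in KO inflamed against KO (lower calls were 2 without KO inflamed replicate 2 and 1 without KO replicate 4 or KO inflamed replicate 1), 0 and 0 to 1 in KO inflamed against WT inflamed and in KO against WT, and 0 and 0 for the interaction. Of 11 pathway calls, none reversed in 188 alternatives. Calls held in 8 of 18 alternatives for Fam20c and 10 of 17 for Galnt1.

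Same-numbered libraries of different groups had correlations of deviations from -0.135 to 0.097, which cannot exclude pairing or a shared batch by replicate number. With the replicate block, the SE of Fgf23 was 0.115 in KO inflamed against KO (0.209 in the main fit). In WT inflamed against WT it was 0.280 (0.273 in the main fit). With the replicate block, called genes were 265 in WT inflamed against WT and 20 in KO inflamed against WT inflamed, and 1 pathway gene was called lower in WT inflamed against WT.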
